A study of Mus musculus with 15 samples.

Results

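The comparison set 5 LH3-AL libraries against 5 GFP-AL libraries, 10 of the 15 libraries of the study, and asked what a virus carrying LH3 changed in the cerebral vessels of mice that received angiotensin II and L-NAME. All mice were wild-type C57BL/6 animals, 8 months of age. GFP-AL mice were injected stereotactically with AAV-GFP, in which an adeno-associated virus brings in the green fluorescent protein, and were given AngII (angiotensin II) plus L-NAME. LH3-AL mice were injected in the same way with AAV-LH3 and were given the same drugs. A further 5 libraries, GFP-Veh, came from mice with AAV-GFP and saline, and their values are given beside the others as the level without drugs. Mice with AAV-LH3 and saline were not analysed here, so every LH3-AL value is one under both the LH3 virus and the drugs. Not given in the sources used here were the serotype, the promoter that drives LH3, the species of its sequence, the drug doses and the interval before sampling. A gene entered where its mean over the 15 libraries was at least 1 FPKM (fragments per kilobase, scaled to library size), which held for 13082 of 22526 gene symbols.

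LH3, the product of Plod3, is an enzyme of the secretory pathway that hydroxylates lysines in collagens and attaches galactose and glucose to the hydroxylysines. Collagen IV, which forms the scaffold of basement membranes together with laminins, nidogens and heparan sulfate proteoglycans, depends on these modifications to be secreted and assembled. Cerebral vessels are wrapped in such a membrane, made jointly by endothelial cells, mural cells and astrocytes. Angiotensin II constricts vessels and L-NAME blocks nitric oxide synthase; the pair raises blood pressure and is used in mice to model hypertensive injury of small cerebral vessels, including haemorrhage.

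Low values rose in steps whose size gave estimated depths of 21460000 to 27760000 fragments for GFP-AL and 18080000 to 31820000 for LH3-AL. The libraries were not evenly spread within groups: on the first principal component of the 10 libraries, which held 49.5% of their variance, GFP-AL replicates 2 and 3 scored -43.3 and -49.3, while the other GFP-AL libraries scored -18.0 to -9.12 and the LH3-AL libraries 17.8 to 36.0. In GFP-AL replicate 3, 11967 genes reached 1 FPKM, while 12446 to 13457 did in the other drug-treated libraries. GFP-AL replicates 2 and 3 were therefore also left out together, and the effect is given beside the results it changed. The defining markers of the labelled tissue were present in every library: Cldn5, the claudin of the endothelial tight junction, ranged over 934 to 1739 FPKM over GFP-AL and 758 to 1081 over LH3-AL. The summed level of 13 pericyte markers was 882 to 1503 and 1414 to 1742 FPKM, and that of all 14 listed smooth muscle markers 615 to 771 and 625 to 908 FPKM. Oligodendrocyte markers were also well detected, at summed levels of 932 to 1654 FPKM for GFP-AL and 1127 to 1659 for LH3-AL. In such bulk samples fewer cells of a type and less RNA per cell cannot be told apart. The labels number the libraries of a group 1 to 5 and do not say that each is a separate animal, so p-values measure only the spread between these libraries. Values listed for a group are in the order of libraries 1 to 5, and a log2 difference is LH3-AL minus GFP-AL on the log2(FPKM + 1) scale.

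The transferred gene was higher in every LH3-AL library. Plod3 (ENSMUSG00000004846; chromosome 5, 136987019 to 136996648, plus strand, GRCm38) stood at 12.2, 14.6, 13.6, 14.4 and 14.9 FPKM in GFP-AL and at 21.2, 21.3, 22.9, 19.5 and 23.2 FPKM in LH3-AL. The lowest LH3-AL library lay above the highest GFP-AL library, and also above the highest of the GFP-Veh libraries, which held 16.9, 16.5, 17, 17.6 and 16 FPKM. The log2 difference was 0.60 ± 0.08 (SE; limma adjusted p = 1.07e-04; two-sided exact permutation p = 0.00794, the lowest possible with 252 ways to split 10 libraries). LH3-AL averaged 1.55 times the GFP-AL level. Against GFP-Veh, LH3-AL differed by 0.34 ± 0.08 and missed the threshold (limma adjusted p = 0.0628). GFP-AL was called below GFP-Veh (-0.25 ± 0.08, limma adjusted p = 0.0216). Plod3 shares exonic bases with Znhit1, its neighbour, and reads from a viral transcript were not separated from those of the mouse gene.

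Among the enzymes that act on the same lysines, 2 of 5 were called higher in LH3-AL, where 17.0% of all tested genes were. The other called one was Colgalt2, a galactosyltransferase that acts on hydroxylysine (chromosome 1, 152399830 to 152510695, plus strand, GRCm38). Its level was 5.24, 3.56, 2.66, 4.74 and 3.46 FPKM in GFP-AL and 9.56, 7.99, 8.57, 8.74 and 7.53 FPKM in LH3-AL, with no overlap. That is a log2 difference of 0.96 ± 0.15 (limma adjusted p = 4.47e-04), and GFP-Veh libraries spanned 7 to 11.1 FPKM. Plod1 and Plod2, the other lysyl hydroxylases, differed by -0.01 ± 0.07 and 0.13 ± 0.17 (adjusted p = 0.926 and 0.592), and the galactosyltransferase Colgalt1 by 0.16 ± 0.12 (adjusted p = 0.309). Most genes for the later steps of collagen making were not called. Of 16 tested genes for prolyl hydroxylation and folding of collagen 3 were called lower and 1 higher (11.4% of all tested genes were called lower). P4hb, protein disulfide isomerase and a subunit of prolyl 4-hydroxylase, was 126, 156, 144, 121 and 119 FPKM in GFP-AL and 84.9, 87.2, 89.1, 84.3 and 105 in LH3-AL (-0.56 ± 0.10; adjusted p = 0.00127), and every LH3-AL library was below every GFP-AL library. The collagen chaperone Fkbp10 differed by -0.55 (adjusted p = 0.00491). Mia3, which loads procollagen into transport vesicles, was at -0.21 (adjusted p = 0.049), a call lost under most alternatives. P3h2, a prolyl 3-hydroxylase that acts on collagen IV, was the one called higher (0.54; adjusted p = 0.00284). Of 10 tested genes for cross-linking and trimming 4 were called lower and 6 were not called. Lox, the lysyl oxidase that starts the cross-links, was 7.83, 7.76, 7.61, 6.16 and 5.32 FPKM in GFP-AL and 3.56, 2.16, 3.27, 2.57 and 2.64 in LH3-AL (-1.05 ± 0.12; adjusted p = 6.48e-05), and its relative Loxl2 differed by -0.70 (adjusted p = 7.82e-04). The other two, Tgm2 and Adamts14, sat at the threshold (adjusted p = 0.0487 and 0.0487) and each lost its call on leaving out any of 8 of the 10 libraries in turn, as also under other alternatives.

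Basement membrane genes were called higher more often than lower, as were all tested genes (17.0% higher and 11.4% lower). Of 21 tested, 7 were higher and 2 lower, with a median log2 difference of 0.29 against 0.08 over all tested genes. Without GFP-AL replicates 2 and 3 the counts were 6 and 0 (limma), as the 2 lower genes then missed the threshold. The list median was then 0.13, against 0.045 over all tested genes. The summed level of the list did not rise. It was 867 to 1141 FPKM in GFP-AL and 796 to 1273 in LH3-AL, with medians of 999 and 930. The pair of genes for the main collagen IV chains led the list. Col4a1 (chromosome 8, 11198423 to 11312826, minus strand, GRCm38) had 44.9, 40.034, 46.9, 43.9 and 49.9 FPKM in GFP-AL and 104, 86, 109.7, 108 and 172 FPKM in LH3-AL. Col4a2, which lies head to head with it and shares annotated exon sequence with it, had 28.7, 28.4, 32.6, 53.5 and 34 FPKM in GFP-AL and 81.2, 74.3, 105, 92.8 and 144 FPKM in LH3-AL. Neither gene overlapped between the groups, with LH3-AL library 5 the highest for both genes and GFP-AL library 4 the highest of its group for Col4a2. The log2 differences were 1.31 ± 0.14 and 1.46 ± 0.18. Other chains that are parts of the same membrane followed: the laminin chain Lama3 averaged 1.5 ± 0.563 FPKM over GFP-AL libraries and 4.4 ± 0.605 over LH3-AL libraries (SD, n = 5; 1.14 ± 0.16, limma adjusted p = 2.75e-04), and Col15a1, the core of a proteoglycan between basement membrane and stroma, 2.07 ± 0.653 and 4.76 ± 1.23 FPKM (0.91 ± 0.17; adjusted p = 0.00132). Agrin (Agrn), a heparan sulfate proteoglycan of cerebral vessels, was higher by 0.82 ± 0.17 (adjusted p = 0.00289). Outside this list, Itgav, the alpha v integrin chain that binds matrix proteins and activates TGF-beta, was 1.18, 0.753, 1.92, 1.09 and 1.14 FPKM in GFP-AL and 6.12, 6.51, 5.89, 6.73 and 5.04 FPKM in LH3-AL. The highest GFP-AL library lay well under the lowest LH3-AL library (1.69 ± 0.14; adjusted p = 7.00e-06). Ecm2, a matrix protein (1.61 ± 0.22), and Spock2, a secreted proteoglycan of the testican family (1.53 ± 0.22), were also higher. Spock2 was an abundant transcript, at 212, 91.8, 191, 269 and 271 FPKM in GFP-AL and 619, 547, 563, 528 and 553 in LH3-AL. Mean GFP-Veh levels were 102 FPKM for Col4a1, 70.6 for Col4a2, 3.65 for Lama3, 4.88 for Col15a1, 5.83 for Itgav and 543 for Spock2. Against GFP-Veh, none of these genes was called in LH3-AL (limma adjusted p from 0.446 for Col4a2 to 0.963 for Spock2). GFP-AL was called below GFP-Veh for each of them, and both contrasts share libraries with the main comparison. Interstitial collagens and fibroblast genes gave 4 called higher of 18 (22.2%, against 17.0% of all tested genes), led by Col5a1 (0.71) and the fibroblast receptor Pdgfra (0.63). No count of that list held without GFP-AL replicates 2 and 3, where limma called 0 higher and 2 lower, and the groups overlapped for each of the 4 genes.

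**Figure D1:**
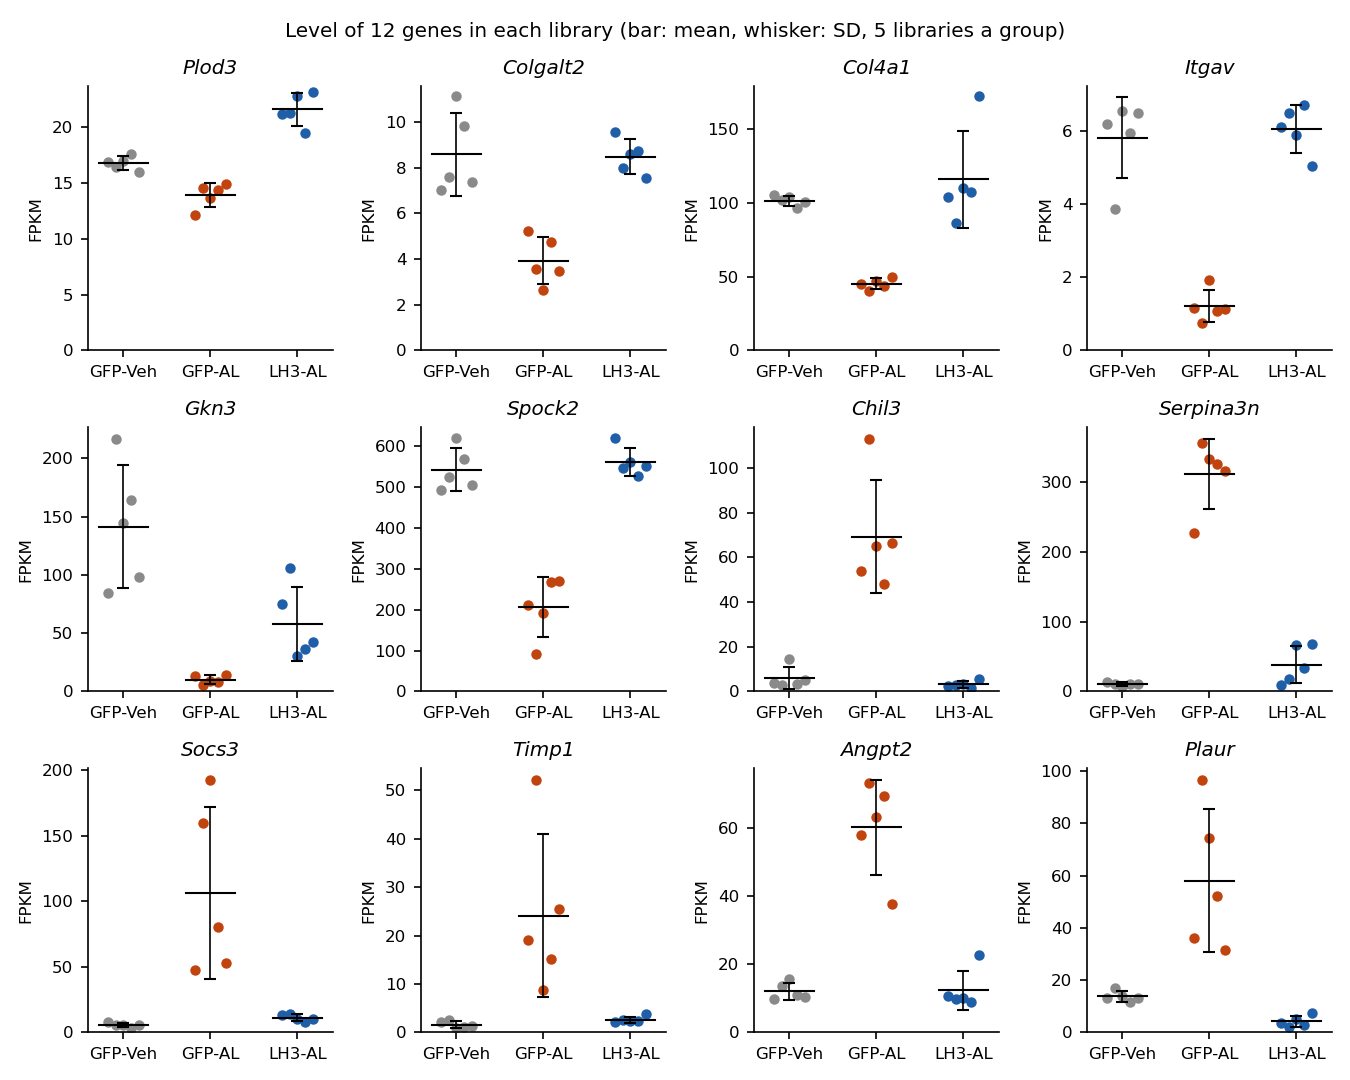
FPKM of 12 genes in each library, one panel per gene, with GFP-Veh in grey, GFP-AL in orange and LH3-AL in blue (points: libraries 1 to 5; bar: mean; whisker: SD). Plod3, Colgalt2, Col4a1, Itgav, Gkn3 and Spock2 lie higher in all 5 LH3-AL libraries than in any GFP-AL library, and Chil3, Serpina3n, Socs3, Timp1, Angpt2 and Plaur lie lower.

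Across the transcriptome 28.5% of the 13082 tested genes were called at a limma adjusted p under 0.05. The higher genes (2227) had modest differences, with a median log2 difference of 0.54, and 177 of them reached 2-fold and 7 reached 4-fold. The lower genes (1496) had a median of -0.62, and 339 reached 2-fold, 71 reached 4-fold and 13 reached 8-fold. At 19.4% of tested genes the values of the 2 groups were free of overlap, and at 8.45% of them with LH3-AL below. The excess of higher genes depended on how libraries were scaled: higher genes made up 59.8% of the calls on FPKM as deposited, 48.5% with median-of-ratios scaling (1784 higher, 1895 lower) and 51.9% with quantile normalization (1774 and 1645). Without GFP-AL replicates 2 and 3 the calls were 1000 higher and 951 lower, of which 1859 were among the 3723 of the full comparison.

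**Figure D2:**
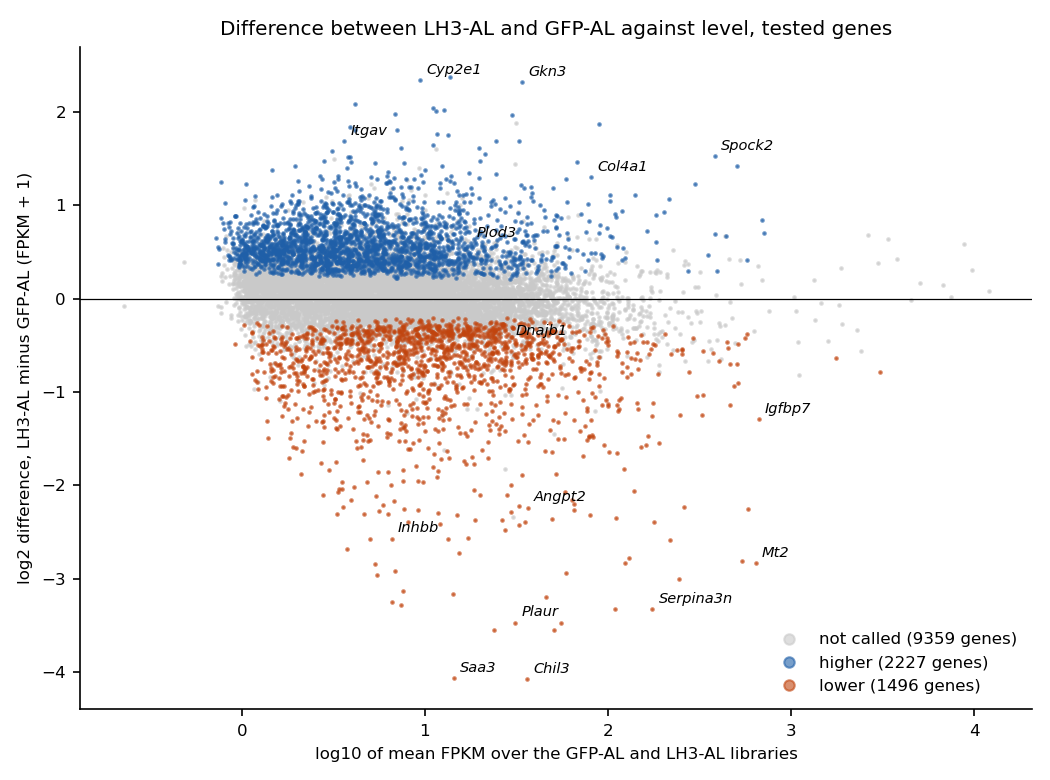
Each tested gene by its level (horizontal: log10 of mean FPKM over the 10 libraries) and its difference (vertical: log2 difference, LH3-AL minus GFP-AL), with 2227 genes called higher in blue, 1496 called lower in orange and the remaining genes in grey. The largest differences point downwards, to Chil3 (-4.07) and Saa3 (-4.07), while Cyp2e1 (2.34) and Gkn3 (2.33) are near the upper end.

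The genes that fell most in LH3-AL included Chil3, Saa3, the beta-tubulin Tubb6 and the hormone Stc1. Saa3 (chromosome 7, 46711998 to 46715700, minus strand, GRCm38), an acute-phase serum amyloid A made outside the liver, had 20.6, 63.9, 22, 14.1 and 20.4 FPKM in GFP-AL and 0.293, 0, 0.998, 0.424 and 1.14 in LH3-AL. The 0 stands for a value below 0 in the deposited table. GFP-AL library 2 held the highest level by far, yet even the lowest GFP-AL library stood above the whole LH3-AL group, whose levels were like the 0.0658 to 2.68 FPKM of GFP-Veh. Serpina3n, an acute-phase protease inhibitor, was 227, 356, 334, 325 and 315 FPKM in GFP-AL and 8.59, 17.7, 66, 32.9 and 67.5 in LH3-AL (-3.32 ± 0.42; limma adjusted p = 1.06e-04). LH3-AL libraries were uneven, with libraries 1 and 2 in or near the GFP-Veh range of 6.5 to 13.5 FPKM and the others above it. Its neighbour Serpina3f was lower as well (-2.92 ± 0.39), although reads of this gene family may be shared between near-identical copies.

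Genes of leukocyte adhesion and inflammatory signalling in endothelium fell as a list: 19 of 23 tested were called lower and 4 were not called, with a median log2 difference of -1.36. Among ligands, the neutrophil chemokine Cxcl1 was 4.66, 9.65, 6.6, 11.7 and 8.5 FPKM in GFP-AL and 2.82, 1.08, 0.783, 0.498 and 1.89 in LH3-AL (-1.96 ± 0.24; adjusted p = 9.45e-05), and the granulocyte growth factor Csf3 was 1.82, 27.7, 18.7, 13.3 and 4.04 FPKM in GFP-AL and 0.0912, 0.0912, 0.0736, 0.0245 and 0.107 in LH3-AL. Csf3 was close to 0 in all LH3-AL and GFP-Veh libraries. Among receptors, the death-domain TNF receptor Tnfrsf1a was 64.4, 106, 97.4, 74.9 and 68.2 FPKM in GFP-AL and 35, 36.1, 34.6, 29.6 and 35.5 in LH3-AL (-1.22 ± 0.13; adjusted p = 4.48e-05), a tight separation in an abundant transcript. Il4ra, the shared receptor chain for interleukins 4 and 13, differed by -2.04 ± 0.26 (adjusted p = 9.98e-05). Ch25h, which makes the oxysterol 25-hydroxycholesterol, was 110.1, 284, 314, 194 and 95.6 FPKM in GFP-AL and 21.3, 27.8, 14.1, 7.69 and 21.6 in LH3-AL. The levels in LH3-AL were above the GFP-Veh range of 5.43 to 10.7 FPKM in most libraries. Venous endothelial genes, a list that shares Ch25h and others with the previous one, had 9 of 14 called lower and 1 higher. The venular leukocyte and chemokine receptors were among them: P-selectin (Selp) averaged 6.32 ± 4.42 FPKM over GFP-AL libraries and 0.711 ± 0.635 over LH3-AL libraries, and Ackr1, a chemokine receptor of venules, 108 ± 54.7 and 22.4 ± 10.6 FPKM. Lrg1, a secreted glycoprotein of activated venules, was 215, 685, 603, 378 and 284 FPKM in GFP-AL and 46.9, 72, 119, 69.7 and 141 in LH3-AL (-2.23 ± 0.45; adjusted p = 0.0024). Lcn2, which sequesters iron-binding siderophores, differed by -2.83 ± 0.59 (adjusted p = 0.00325), and its groups overlapped. In the contrast of LH3-AL with GFP-Veh, which shares the LH3-AL libraries, Lrg1 was still higher (2.49 ± 0.45; adjusted p = 0.0192), and Lcn2 missed the threshold (2.17 ± 0.59; adjusted p = 0.172). Markers of neutrophils and of blood-derived myeloid cells moved with these genes. The summed level of all 14 listed neutrophil markers was 128 to 984 FPKM for GFP-AL and 48.5 to 89.8 for LH3-AL. That of all 18 listed myeloid markers was 501 to 675 and 224 to 337 FPKM. Their part in the inflammatory differences was not tested.

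Signalling genes upstream and downstream of these products were lower too. In the STAT3 and gp130 pathway, through which interleukin 6 and its relatives drive the acute-phase response, 15 of 20 tested genes were called lower and 2 higher, with a median of -0.97. Stat3 itself was 15.4, 24.1, 22.2, 21.1 and 19.2 FPKM in GFP-AL and 9.78, 8.78, 10.033, 8.78 and 10.9 in LH3-AL (-1.0 ± 0.12; adjusted p = 8.65e-05). Its feedback inhibitor Socs3 was 47.4, 159.7, 192, 80.7 and 52.8 FPKM in GFP-AL and 13.6, 14.4, 10.6, 7.78 and 9.99 in LH3-AL (-2.94 ± 0.33; adjusted p = 5.32e-05). GFP-AL libraries 2 and 3 were the highest, and the remaining 3 were still over every LH3-AL library. The acute-phase transcription factors Cebpd and Cebpb differed by -2.39 ± 0.26 and -2.48 ± 0.40. Cebpd was an abundant transcript, at 189, 423, 459, 263 and 187 FPKM in GFP-AL against 36.8, 47.8, 58.8, 52.8 and 76.2 in LH3-AL. Of 18 tested NF-kappaB subunits and feedback genes 11 were called lower. The DNA-binding subunits Nfkb2, Relb and Rela differed by -1.07 ± 0.14, -1.14 ± 0.17 and -0.74 ± 0.11, the inhibitor Nfkbie by -0.79 ± 0.12, and the ubiquitin ligase Birc3, a target that limits cell death, by -1.11 ± 0.15. None of these overlapped between the groups; the Nfkb2 levels were 14, 21.4, 15.1, 18.9 and 18.5 FPKM in GFP-AL and 8.37, 6.79, 7.97, 6.25 and 9.96 in LH3-AL. Immediate early genes, which respond within minutes to growth factors and stress, were called lower at 15 of 24. Fosl1 and Fosl2, partners of AP-1, differed by -2.84 ± 0.34 and -1.74 ± 0.32, the small Maf protein Maff by -2.07 ± 0.28 and the MAP kinase phosphatase Dusp2 by -2.10 ± 0.24. Dusp2 was 2.4, 8.19, 8.02, 4.87 and 2.57 FPKM in GFP-AL and 0.405, 0.343, 0.275, 0.159 and 0.461 in LH3-AL. As a list, immediate early genes were uneven among the LH3-AL libraries: the median log2 difference from the GFP-AL mean was -0.33, -0.89, -1.71, -1.78 and -1.69 in libraries 1 to 5. Libraries 1 and 2 thus lay nearer to GFP-AL than the other 3. GFP-AL libraries 1 to 5 were uneven as well, at -0.50, 0.50, 0.24, 0.37 and -0.60, and LH3-AL library 1 lay within their range.

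**Figure D3:**
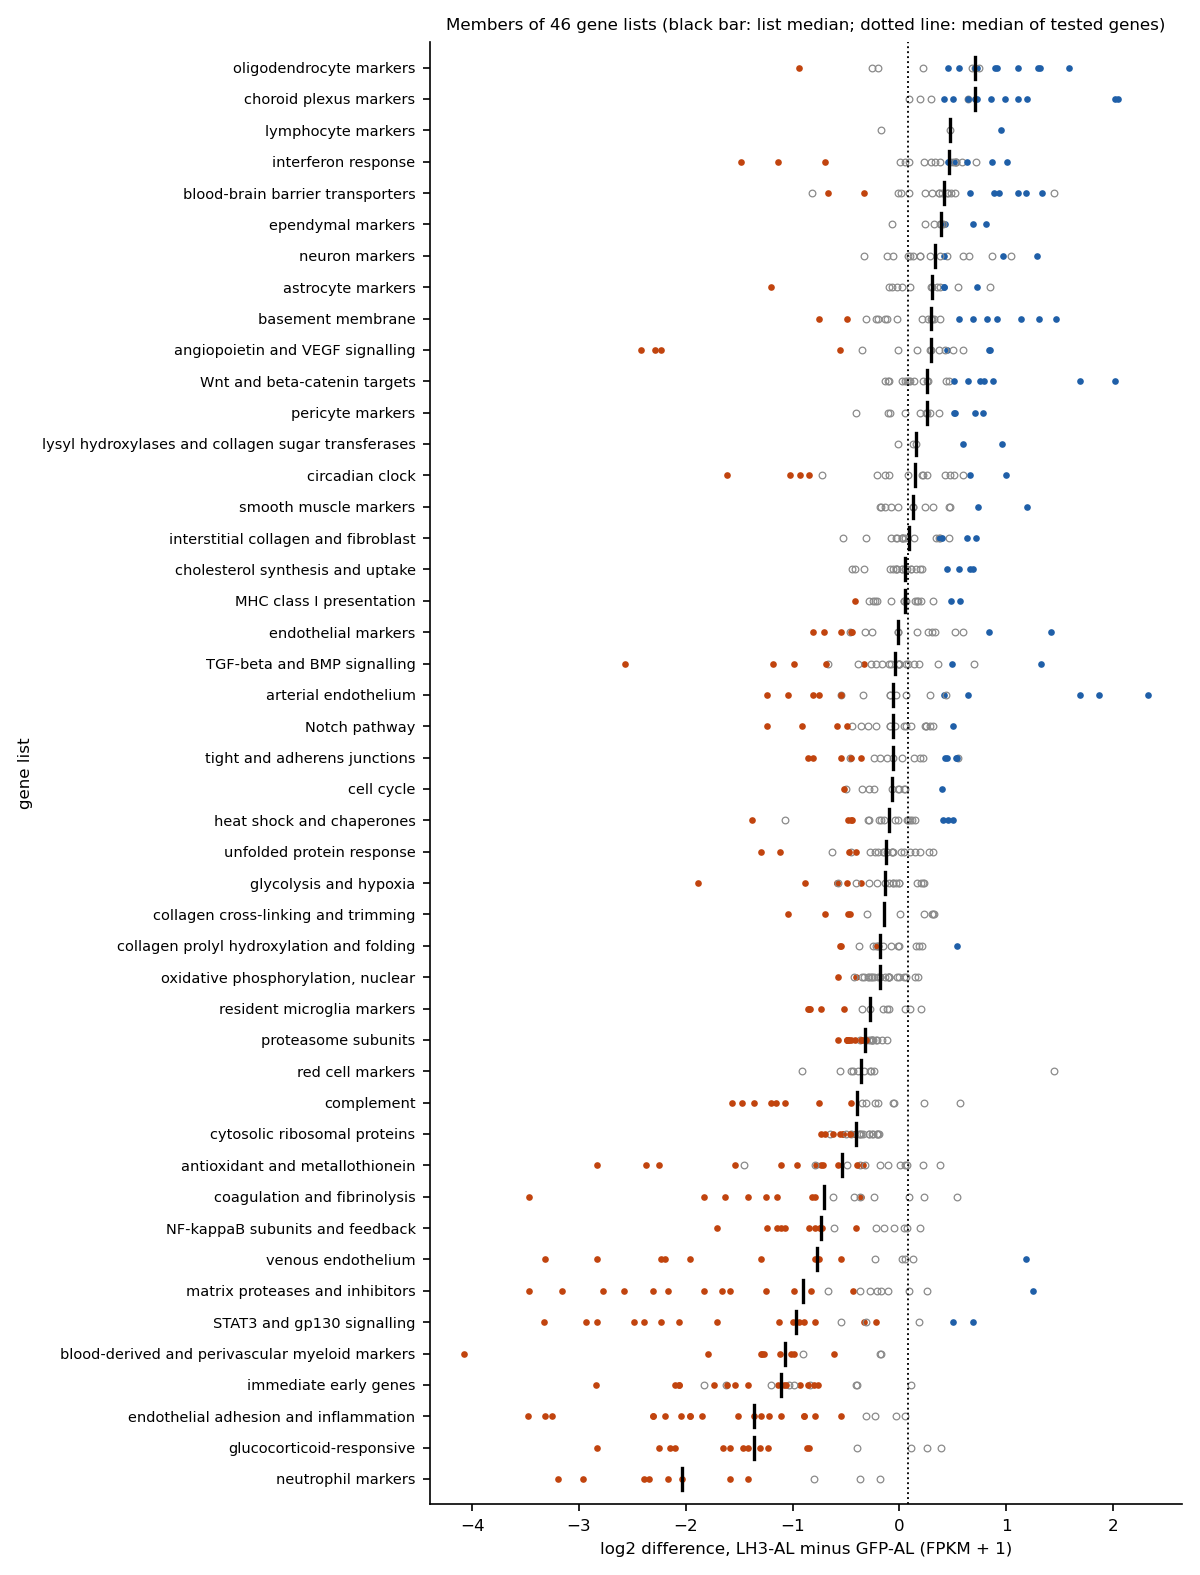
Log2 difference (LH3-AL minus GFP-AL) of each tested member of 46 gene lists, one list per line, with members called higher in blue, called lower in orange and not called as open circles; black bars mark list medians and the dotted line the median of all tested genes, 0.08. Neutrophil, glucocorticoid-responsive and endothelial inflammation lists sit farthest left, and oligodendrocyte and choroid plexus markers farthest right.

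The promoters of 3 of these lower genes are printed to show the letters that the motif counts below refer to. They are the 250 bases before the start site in the direction of transcription, from RefSeq on GRCm38.p6: Cxcl1 at chr5:90890995-90891244 on the plus strand, Saa3 at chr7:46715677-46715926 on the minus strand and Plaur, the urokinase receptor, at chr7:24462233-24462482 on the plus strand. Capitals mark matches, on either strand, to GGNNTTTCC (a form of the NF-kappaB site, in Cxcl1 and Saa3) or to TGANTCA (the AP-1 site, in Plaur).
Cxcl1: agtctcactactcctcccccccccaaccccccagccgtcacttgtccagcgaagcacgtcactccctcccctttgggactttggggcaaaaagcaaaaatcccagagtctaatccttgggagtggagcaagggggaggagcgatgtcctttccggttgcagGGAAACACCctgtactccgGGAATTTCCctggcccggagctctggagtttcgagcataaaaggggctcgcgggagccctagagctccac
Saa3: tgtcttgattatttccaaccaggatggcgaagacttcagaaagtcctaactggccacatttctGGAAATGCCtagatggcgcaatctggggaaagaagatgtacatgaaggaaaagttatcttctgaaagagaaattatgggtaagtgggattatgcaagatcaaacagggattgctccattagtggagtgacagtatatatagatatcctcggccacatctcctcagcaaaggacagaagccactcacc
Plaur: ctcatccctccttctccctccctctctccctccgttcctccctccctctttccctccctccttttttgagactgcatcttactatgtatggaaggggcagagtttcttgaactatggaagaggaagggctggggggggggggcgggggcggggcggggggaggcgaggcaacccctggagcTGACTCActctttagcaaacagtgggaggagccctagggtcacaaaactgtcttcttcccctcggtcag
Promoters from 250 bases before to 50 after the start were matched by symbol for 9628 of the 13082 tested genes (12334 promoters), and both strands were searched. The kappaB letters were in 5.97% of these promoters, in 5.83% of the promoters of genes called higher and in 7.56% of those called lower. AP-1 letters were in 5.12%, 4.67% and 7.35%, and those for STAT proteins (TTCCNGGAA) in 1.22%, 1.11% and 2.09%. Among genes called lower by at least 1 on the log2 scale, a subset added after the values were seen, the shares were 9.93%, 12.3% and 2.32% in that order, and in genes called higher by at least 1 they were 6.75%, 7.98% and 1.84%. The heat shock letters below were also more frequent in both subsets, at 9.6% for the lower and 9.2% for the higher genes. Letters of the heat shock element (GAANNTTC) were in 5.74% of tested promoters, 6.36% for higher and 6.92% for lower genes, those of the E-box (CACGTG) in 9.75%, 7.66% and 10.7%, and those of the cyclic AMP response element (TGACGTCA) in 2.95%, 2.60% and 3.10%. Over all 32851 promoters of the table the kappaB letters were in 5.82%, AP-1 in 7.81% and STAT in 1.15%. TTCC ends the kappaB letters and begins the STAT letters, so matches to that pair can overlap. A match describes letters in a window, not binding.

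Most genes for cutting the matrix and dissolving clots fell. Of 22 tested matrix proteases and inhibitors 13 were called lower and 1 higher, with a median of -0.90. Timp1, an inhibitor of matrix metalloproteinases, was 19.2, 52, 8.66, 15.1 and 25.5 FPKM in GFP-AL and 2.2, 2.52, 2.31, 2.29 and 3.78 in LH3-AL (-2.58 ± 0.33; limma adjusted p = 1.07e-04). GFP-AL library 2 held the highest level, and the lowest GFP-AL library was above the LH3-AL group. Stromelysin 1 (Mmp3), which degrades many matrix proteins, averaged 6.44 ± 5.36 FPKM over GFP-AL libraries and 0.206 ± 0.0954 over LH3-AL libraries. The proteoglycan-cleaving proteases Adamts1 and Adamts9 differed by -2.78 ± 0.37 and -3.16 ± 0.33; Adamts1 was 181, 249, 283, 284 and 126 FPKM in GFP-AL and 75.3, 33.3, 19.3, 13.4 and 39.7 in LH3-AL. Of 16 tested genes of coagulation and fibrinolysis 9 were called lower, several of them shared with the protease list. Plaur, the receptor that holds urokinase at the cell surface, was 36, 96.5, 74.5, 52.1 and 31.5 FPKM in GFP-AL and 3.58, 2.12, 4.95, 3 and 7.28 FPKM in LH3-AL. Its LH3-AL levels were below even the 13.3, 17, 14, 11.5 and 13.2 FPKM of GFP-Veh. Tissue plasminogen activator (Plat), which endothelium stores and releases, was 376, 687, 311, 447 and 482 FPKM in GFP-AL and 157, 144, 211, 242 and 194 in LH3-AL (-1.25 ± 0.20; adjusted p = 5.44e-04). The protein C receptor Procr differed by -1.42 ± 0.20 and thrombospondin 1 (Thbs1), which also activates TGF-beta, by -1.63 ± 0.26. These 3 genes did not overlap between the groups.

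Most tested markers of neutrophils and of blood-derived myeloid cells were lower in LH3-AL beside the inflammatory genes. Of 11 tested neutrophil markers 8 were called lower, with a median of -2.04; Ly6g, Elane and Mpo, which define granulocytes and their precursors, did not reach the mean of 1 FPKM. Their median levels over the 5 libraries were under 0.6 FPKM in each of the 3 groups. In GFP-Veh the summed level of all 14 listed markers was 111 to 359.7 FPKM, above the LH3-AL range. The groups overlapped for the tested neutrophil markers Ngp, Camp and Ltf. Their medians were 17.7, 1.96 and 1.24 FPKM in GFP-AL and 15.8, 2.61 and 1.39 in LH3-AL. In GFP-Veh these medians were 24.8, 10.9 and 3.46 FPKM. The resistin-like protein Retnlg was 24.1, 231, 62.9, 28.3 and 83 FPKM in GFP-AL and 5.57, 4.7, 9.23, 3.28 and 7.61 in LH3-AL (-3.20 ± 0.48; adjusted p = 3.51e-04). GFP-AL libraries were very uneven for it, and the lowest of them was still above the LH3-AL range. The decoy receptor Il1r2 was 3.22, 18.6, 12.2, 2.93 and 16.3 FPKM in GFP-AL and 0.178, 0.06, 0.142, 0.322 and 0.382 in LH3-AL, where it was nearly absent. Of 12 tested markers of blood-derived and perivascular myeloid cells 9 were called lower (median -1.07). The chitinase-like protein Chil3 was 54.1, 113, 65.2, 48.2 and 66.3 FPKM in GFP-AL and 2.63, 2.99, 3.34, 1.47 and 5.55 in LH3-AL. The integrin Itgam, lysozyme Lyz2 and the calcium-binding S100a4 differed by -1.30 ± 0.16, -1.12 ± 0.16 and -1.79 ± 0.27. The other 6 members of that list, the monocyte receptor Ccr2 and the pan-leukocyte Ptprc among them, lay below the filter. Resident microglia markers moved less: 5 of 13 were called lower (median -0.28), among them the receptor Csf1r (-0.73). The call of Tmem119 (adjusted p = 0.0394) was lost on leaving out any single library. The summed microglial level was 214 to 297 FPKM for GFP-AL and 143 to 174 for LH3-AL, and neither this sum nor the other 2 overlapped between GFP-AL and LH3-AL.

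Complement genes, many of them made by microglia and macrophages, were called lower at 8 of 16. The chains of C1q, the first component of the classical pathway, moved in parallel: C1qa was 190.5, 285, 352, 193 and 211 FPKM in GFP-AL and 77.3, 81.9, 89.6, 81.6 and 98.3 in LH3-AL (-1.47 ± 0.24), and C1qb and C1qc differed by -1.57 ± 0.21 and -1.36 ± 0.20. None of the 3 chains overlapped between the groups, and LH3-AL means differed from GFP-Veh by -0.09, -0.04 and -0.02. The central component C3 and the anaphylatoxin receptor C3ar1 differed by -1.07 ± 0.19 and -1.15 ± 0.14. Interferon-response genes were mixed, with 5 called higher and 3 lower of 22. The membrane proteins Ifitm1 and Ifitm2, also induced by other cytokines, were lower (-1.48 ± 0.24 and -1.14 ± 0.19), while the GTPase Gbp3 (0.86 ± 0.17), Ifi44 (1.01 ± 0.23) and Xaf1 (0.51) were higher, as was the related GTPase Gbp7 (1.65 ± 0.40), which is not on the list. The count higher was 3 with median-of-ratios scaling and 2 without GFP-AL replicates 2 and 3, where Xaf1 lost its call (adjusted p = 0.148). MHC class I presentation gave 2 higher and 1 lower of 16 (18.8% called, under the 28.5% of all tested genes). These were the peptide-trimming enzyme Erap1 (0.57), the immunoproteasome subunit Psmb9 (0.49) and the heavy chain H2-D1 (-0.42). The calls of Psmb9 and H2-D1 were lost without GFP-AL replicates 2 and 3 (adjusted p = 0.0525 and 0.225). Of 14 lymphocyte markers only 3 reached the filter, and the immunoglobulin heavy chain Ighm was higher in LH3-AL (11.8, 11.9, 8.54, 8.15 and 8.01 FPKM in GFP-AL and 18.5, 23.6, 14.5, 21.7 and 19.7 in LH3-AL; 0.95 ± 0.17).

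**Figure D4:**
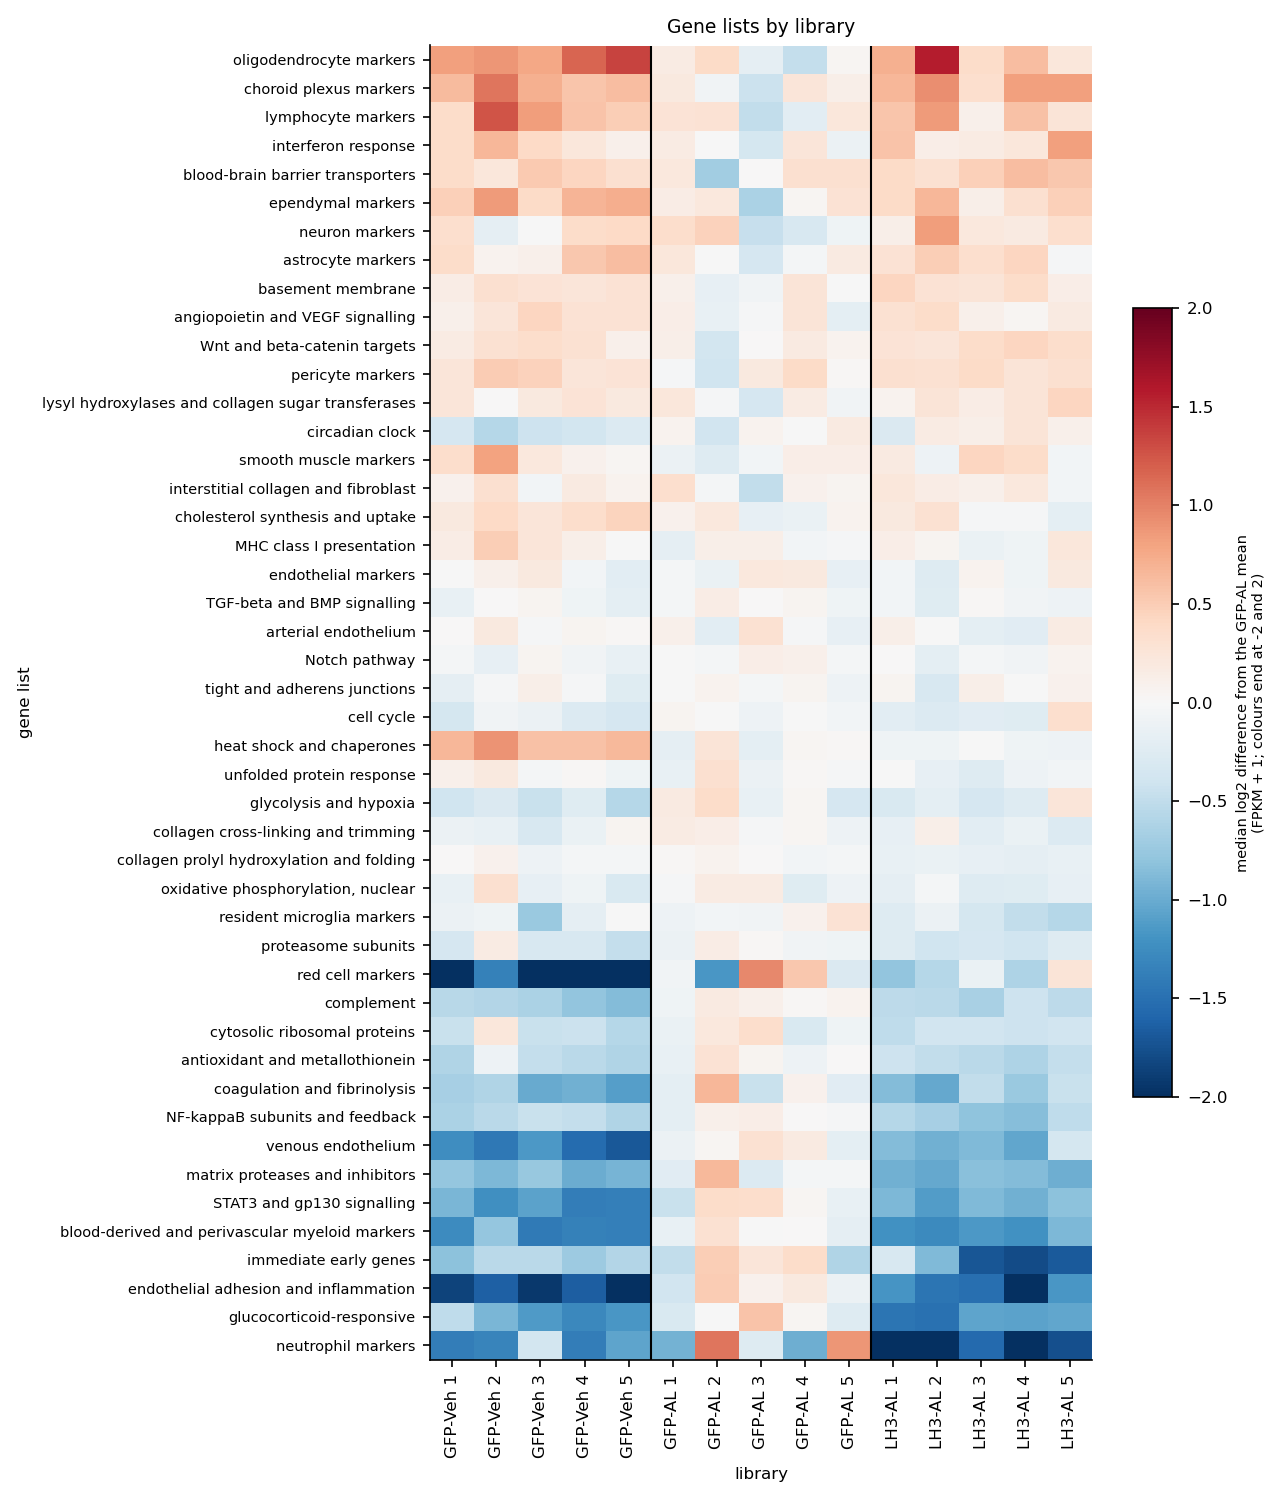
Median log2 difference of the tested members of each of 46 gene lists (lines) from their GFP-AL mean, in each of the 15 libraries (columns), on a colour scale that ends at -2 (blue) and 2 (red). For endothelial adhesion and inflammation the LH3-AL medians are -1.18, -1.47, -1.50, -2.13 and -1.16 and the GFP-Veh medians -1.85, -1.64, -1.92, -1.64 and -2.23, while for heat shock genes the LH3-AL medians, -0.08, -0.08, -0.01, -0.09 and -0.10, lie below all GFP-Veh medians, 0.67, 0.90, 0.59, 0.59 and 0.65.

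Many metal, redox and stress-hormone genes were also lower in LH3-AL. Of 24 antioxidant and metallothionein genes 12 were called lower (median -0.53). Metallothionein 2 (Mt2), a small cysteine-rich protein that binds zinc and copper, was 394, 2815, 1576, 443 and 576 FPKM in GFP-AL and 100.4, 105, 138, 131 and 123 in LH3-AL (-2.83 ± 0.44; adjusted p = 4.59e-04), and its neighbour Mt1 464, 2059.7, 1417, 476 and 565 FPKM in GFP-AL and 174, 142, 186, 189 and 168 in LH3-AL (-2.25 ± 0.35). GFP-AL was very uneven for both genes, but all 5 of its libraries were above all of LH3-AL. Haem oxygenase 1 (Hmox1), which breaks down haem, was 19.5, 95.4, 32.8, 43.2 and 36.4 FPKM in GFP-AL and 5.32, 4.69, 6.31, 5.88 and 15.3 in LH3-AL (-2.37 ± 0.34; adjusted p = 2.75e-04). LH3-AL library 5 was the highest of its group. Thioredoxin reductase 1 (Txnrd1) and sulfiredoxin (Srxn1), targets of the redox sensor NRF2, differed by -0.72 ± 0.10 and -0.96 ± 0.14, and Ncf1, a cytosolic subunit of the phagocyte oxidase, by -1.11 ± 0.14. Genes that respond to glucocorticoids were called lower at 12 of 16 (median -1.36). The called members included the metallothioneins, which metals and cytokines also induce, and the kinase Sgk1 (-1.23 ± 0.19), the EGF receptor inhibitor Errfi1 (-1.47 ± 0.21) and the lipase inhibitor Angptl4 (-2.10 ± 0.33). In the unfolded protein response 4 of 22 were called lower (18.2%, where 11.4% of all tested genes were called lower and 28.5% in either direction). Its transcription factors Xbp1 and Atf4 led: Xbp1 was 73, 169.8, 142, 107 and 92.3 FPKM in GFP-AL and 47.1, 51.1, 42.1, 40.1 and 45 in LH3-AL (-1.30 ± 0.17), and Atf4 differed by -1.12 ± 0.19. The degradation factor Edem1 (-0.47) followed, and Herpud1 (-0.41) lost its call without GFP-AL replicates 2 and 3 (adjusted p = 0.118).

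Several angiogenic ligands fell, while 2 receptors rose. Angpt2, which endothelium releases to antagonise the stabilising receptor Tie2, was 58.1, 73.4, 63.2, 69.4 and 37.7 FPKM in GFP-AL and 10.8, 9.94, 10.029, 8.86 and 22.6 in LH3-AL (-2.24 ± 0.23; limma adjusted p = 2.49e-05). Tek, which encodes Tie2, went the other way, from 41.9, 19.8, 41.6, 49.3 and 31.4 FPKM in GFP-AL to 81.2, 54.8, 62.1, 54.8 and 70.4 in LH3-AL (0.84 ± 0.20; adjusted p = 0.00678). Neither gene overlapped between the groups. Apelin (Apln), a peptide of sprouting tip cells, and placental growth factor (Pgf) differed by -2.42 ± 0.29 and -2.29 ± 0.29, with Apln at 89.9, 43.5, 34, 70.9 and 38.6 FPKM in GFP-AL and 6.32, 9.04, 6.5, 6.82 and 20.4 in LH3-AL. The VEGF co-receptor Nrp1 was higher (0.85 ± 0.21), a call lost without GFP-AL replicates 2 and 3 (adjusted p = 0.0908). In all, 4 of 16 genes of the angiopoietin and VEGF list were called lower and 3 higher (3 and 1 without those libraries). Of 24 tested genes of TGF-beta and BMP signalling 5 were called lower and 2 higher (4 and 1 without those libraries). That was 29.2% called, near the 28.5% of all tested genes. Inhbb, the beta B subunit of activins and inhibins, was 6.41, 19.8, 15, 12.6 and 6.71 FPKM in GFP-AL and 1.11, 1.55, 0.738, 0.812 and 1.08 in LH3-AL (-2.57 ± 0.24; adjusted p = 1.55e-05). Ligands of the TGF-beta family split: Tgfb1 was lower (-0.99 ± 0.13) and Tgfb2 higher (1.33 ± 0.19), each with no overlap. Tgfb2 was 6.27, 3.73, 4.24, 5.62 and 4.69 FPKM in GFP-AL and 20.4, 16.4, 11.3, 11.5 and 10.9 in LH3-AL. Smad1, which carries BMP signals, was lower (-1.18 ± 0.14), as was Bmp2 (-0.69 ± 0.18). In the Notch pathway 4 of 20 were called lower and 1 higher (25% called, under the 28.5% of all tested genes). The endothelial ligand Dll4 was 55.5, 72.3, 62.3, 69.5 and 35 FPKM in GFP-AL and 32.1, 26.5, 17.4, 18.9 and 26 in LH3-AL (-1.24 ± 0.19; adjusted p = 4.99e-04), and its feedback target Nrarp differed by -0.91 ± 0.19. The glycosyltransferases that tune Notch moved apart, with Mfng at -0.49 and Lfng at 0.50; the call of Lfng and that of the target Hes1 (-0.59) were lost without GFP-AL replicates 2 and 3 (adjusted p = 0.121 and 0.0758), which left limma with 0 called higher in that list.

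The highest genes in LH3-AL included markers of arterial endothelium. Gkn3, a gastrokine expressed in cerebral arterial endothelium, was 13.6, 5.63, 9.02, 7.77 and 14.3 FPKM in GFP-AL and 74.8, 106, 30.3, 36.1 and 42.6 in LH3-AL (2.33 ± 0.34; adjusted p = 3.48e-04). The groups did not overlap, and LH3-AL libraries 1 and 2 were the highest. GFP-Veh levels were 84.3, 216, 145, 164 and 97.9 FPKM, so 4 of the LH3-AL libraries lay below the saline range (LH3-AL minus GFP-Veh -1.35 ± 0.34; adjusted p = 0.126). Alkaline phosphatase (Alpl), an ectoenzyme of cerebral capillaries and arterioles, was 15.6, 8.53, 15.6, 17.2 and 17.7 FPKM in GFP-AL and 65.7, 64.5, 43.1, 43.5 and 35.7 in LH3-AL (1.69 ± 0.21), against 63.7 to 112 FPKM in GFP-Veh. Cxcl12, the ligand of CXCR4, was 48.3, 15, 49.8, 52.7 and 33.3 FPKM in GFP-AL and 149, 128, 112, 113 and 189 in LH3-AL. Endothelin 1 (Edn1), a vasoconstrictor, was 57.1, 49.9, 47.2, 39.8 and 41.1 FPKM in GFP-AL and 77.7, 73.9, 77.5, 76.1 and 62.9 in LH3-AL (0.64 ± 0.11; adjusted p = 9.30e-04). The whole arterial list split evenly, 5 higher and 5 lower of 18, and 5 and 2 without GFP-AL replicates 2 and 3, with Dll4 among the lower genes.

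Several transporters of the blood-brain barrier were higher. Of 22 tested 6 were called higher and 2 lower (6 and 1 without GFP-AL replicates 2 and 3). Over all tested genes 17.0% were called higher. The list median was 0.42, but 0.073 without GFP-AL replicates 2 and 3, against 0.045 over all tested genes in that setting. Its summed level overlapped, at 1968 to 3379 FPKM in GFP-AL and 1887.5 to 3157.5 in LH3-AL. The thiamine transporter Slc19a3 was 21, 5.8, 8.09, 22.5 and 15.1 FPKM in GFP-AL and 33.4, 26.3, 38.3, 39.9 and 34.3 in LH3-AL (1.34 ± 0.28; adjusted p = 0.0029). The organic anion transporter Slc22a8 was 81.8, 25.8, 67.7, 81.3 and 80.2 FPKM in GFP-AL and 167, 147, 118, 127 and 123 in LH3-AL (1.11 ± 0.25; adjusted p = 0.00566), and GFP-AL library 2 lay far below the rest of its group. The glutamine transporter Slc38a5 (1.19 ± 0.25), the iron exporter Slc40a1 (0.89 ± 0.21) and the taurine transporter Slc6a6 (0.93 ± 0.28; adjusted p = 0.0227, and not called without LH3-AL replicate 1) were higher, and the glutamate transporter Slc1a1 was lower (-0.66 ± 0.13). Wnt signalling maintains this barrier. Of 21 tested Wnt and beta-catenin genes 7 were called higher and 14 not called, where 17.0% of all tested genes were called higher. The median of these Wnt genes was 0.26. The largest difference among them was that of the Wnt antagonist Sostdc1 (2.01), which is also a listed choroid plexus marker. The co-receptor Lrp6 (0.51 ± 0.10), the receptor Fzd6 (0.76 ± 0.15) and the target Tnfrsf19 (0.88 ± 0.18) were also called higher. Tnfrsf19 was 32.9, 18.8, 20.4, 31.4 and 23 FPKM in GFP-AL and 58.7, 43.7, 40.3, 39.2 and 51.5 in LH3-AL. Junction genes had no common direction, with 4 higher and 5 lower of 19. Esam, an adhesion molecule of endothelial junctions, was 205, 279.7, 292, 219 and 201 FPKM in GFP-AL and 126, 114, 149, 127 and 162 in LH3-AL (-0.81 ± 0.14; adjusted p = 0.00107), and tricellulin (Marveld2) differed by -0.86, F11r (junctional adhesion molecule A) by -0.36, Jam3 by 0.42 and cingulin (Cgn) by 0.54. The call of F11r was lost without GFP-AL replicates 2 and 3 (adjusted p = 0.0711). The count lower was 2 with quantile normalization and 2 without GFP-AL replicates 2 and 3.

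Other genes among the 20 with the highest differences, taken from called genes whose groups did not overlap, were of varied function. Sgpp2, a sphingosine 1-phosphate phosphatase, was 12.3, 7.1, 10.1, 15.6 and 13.3 FPKM in GFP-AL and 66.8, 50.7, 43.5, 41.6 and 37.9 in LH3-AL (1.96 ± 0.19; adjusted p = 2.10e-05). Cyp2e1, a cytochrome P450, was 5.42, 0.573, 0.616, 2.89 and 4.06 FPKM in GFP-AL and 29, 14.8, 13.6, 11.1 and 11.8 in LH3-AL, with LH3-AL library 1 the highest of its group. Slc16a4, of the monocarboxylate transporter family, was 5.64, 2.78, 2.97, 12.7 and 6.4 FPKM in GFP-AL and 28.7, 19.6, 17, 17.2 and 20.9 in LH3-AL. The aldo-keto reductase Akr1c14 (1.98 ± 0.30), Slc26a10 (2.02 ± 0.25), the adhesion scaffold Kank4 (1.61 ± 0.16), the leucine-rich repeat protein Lrrn3 (1.55 ± 0.24), the histone H3 gene Hist2h3c2 (1.52 ± 0.20) and the calcium pump Atp2b2 (1.52 ± 0.28) were also in this set. Exons of Slc26a10 and Sgpp2 overlap those of B4galnt1 and Farsb. Among the 20 with the lowest differences not yet described were the secreted hormone Stc1 (-3.55 ± 0.33), the CD30 ligand Tnfsf8 (-3.28 ± 0.24), the stefin Stfa2l1 (-3.13 ± 0.41), a member of a family of near-identical cysteine protease inhibitors, Tmem252 (-3.0 ± 0.36) and Ctla2a (-2.81 ± 0.32), which is similar to a cathepsin propeptide and has a close copy. The lipopolysaccharide co-receptor Cd14 (-3.47 ± 0.32) and the beta-tubulin Tubb6 (-3.55 ± 0.35) belonged there too. Tmem252 was 247, 631, 786, 311 and 202 FPKM in GFP-AL and 30.3, 35.3, 46.8, 42.4 and 99.8 in LH3-AL.

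Very abundant transcripts took part in both directions. Itm2a, a membrane protein of cerebral endothelium, was 357, 119, 241, 351 and 391 FPKM in GFP-AL and 884, 699, 663, 652 and 733 in LH3-AL (1.42 ± 0.26; adjusted p = 0.00133). The phospholipid transfer protein Pltp was 198, 144, 129, 229.9 and 193 FPKM in GFP-AL and 507, 389.96, 470.4, 332 and 381 in LH3-AL (1.23 ± 0.19), and the matrix metalloproteinase inducer basigin (Bsg), a barrier antigen, averaged 503 ± 141 and 887 ± 162 FPKM (0.85 ± 0.21). The growth factor pleiotrophin (Ptn) was higher by 0.89 ± 0.16, the amyloid precursor App by 0.42 ± 0.12, Pcp4l1 by 0.68 ± 0.18 and the lysosomal Laptm4a by 0.29 ± 0.10; the last 2 lost their calls without GFP-AL replicates 2 and 3 (adjusted p = 0.0905 and 0.145). On the lower side, Igfbp7, a secreted protein of angiogenic vessels, was 767, 1014, 1270, 842 and 798 FPKM in GFP-AL and 313, 264, 441, 366 and 564 in LH3-AL (-1.29 ± 0.21; adjusted p = 6.73e-04). The lipocalin Apod differed by -0.90 ± 0.20, the elongation factor Eef1a1 by -0.37 ± 0.11 and the actin-severing Cfl1 by -0.42 ± 0.13; the calls of Eef1a1 and Cfl1 were lost without GFP-AL replicates 2 and 3 (adjusted p = 0.0997 and 0.0984).

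Markers of some other cells of the brain differed between the groups. Of 15 tested choroid plexus markers 11 were called higher (median 0.71), and 7 without GFP-AL replicates 2 and 3, although the brains had been cleared of that tissue before homogenisation, per the labels. The summed level of the list was 3922 to 9502 FPKM for GFP-Veh, 2097 to 3247 for GFP-AL and 3344 to 5534 for LH3-AL. The potassium channel subunit Kcne2 was 5.55, 1.73, 1.5, 5.34 and 5.85 FPKM in GFP-AL and 20.6, 22.2, 13.1, 19 and 15.4 in LH3-AL, the BMP and Wnt antagonist Sostdc1 4.37, 3.8, 2.03, 5.75 and 4.03 FPKM in GFP-AL and 18.4, 24.9, 13.6, 19.2 and 18.3 in LH3-AL, and klotho (Kl) 4.37, 4.34, 1.96, 5.18 and 5 in GFP-AL and 10.7, 11.1, 7.48, 11.7 and 12 in LH3-AL. Every LH3-AL library was above every GFP-AL library for these 3 genes. Ependymal markers gave 3 higher of 9, Rsph1 (0.81 ± 0.21), Ccdc153 (0.69) and Dnah11 (0.43), of which Rsph1 alone was called without those libraries. Of 17 oligodendrocyte markers 10 were called higher and 1 lower, and 6 and 1 without GFP-AL replicates 2 and 3. The galactosylceramide synthase Ugt8a was 1.12, 1.52, 0.252, 1.01 and 0.982 FPKM in GFP-AL and 5.46, 10.045, 3.48, 4.35 and 2.79 in LH3-AL (1.59 ± 0.28), the lysophospholipase Enpp2, which choroid plexus also makes, differed by 0.73 ± 0.13 and the lineage factor Olig1 by 0.92 ± 0.21. Mal, a myelin proteolipid, was the lower one, at 566, 613, 1057, 427 and 549 FPKM in GFP-AL and 232, 240.2, 391, 377 and 403 in LH3-AL (-0.94 ± 0.22). Its direction was thus opposite to that of the other called markers. Astrocyte markers gave 3 higher and 1 lower of 15 (26.7% called, under the 28.5% of all tested genes). The lower one was Gfap, the intermediate filament of reactive astrocytes, at 170.5, 224, 80.007, 157 and 172 FPKM in GFP-AL and 51.1, 64.2, 76.6, 63.6 and 77.2 in LH3-AL (-1.20 ± 0.22, limma adjusted p = 0.00127). The glutamate transporter Slc1a2 (0.72 ± 0.15) and Ndrg2 (0.42 ± 0.11) were higher. Neuron markers gave 3 higher of 18, a share close to the 17.0% of all tested genes, the receptor subunit Gria2 (0.97), Map2 (1.29) and Stmn2 (0.42); Map2 lost its call without GFP-AL replicates 2 and 3 (adjusted p = 0.056) and Stmn2 with median-of-ratios scaling. The part of these cells in the higher genes of LH3-AL was not tested.

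Mural and endothelial markers gave calls that depended on GFP-AL replicates 2 and 3. Of 13 pericyte markers 4 were called higher, and 1 without GFP-AL replicates 2 and 3. Rgs5, a regulator of G protein signalling, was 596, 369.99, 480.01, 753 and 545 FPKM in GFP-AL and 978, 688, 949.95, 929.9 and 847 in LH3-AL (0.71 ± 0.17; adjusted p = 0.00833, and 0.058 without those libraries). The groups overlapped. The proteoglycan Cspg4 (0.52), Anpep (0.51) and the ATPase Atp13a5 (0.78) completed the 4, and the last 2 lost their calls without those libraries (adjusted p = 0.0995 and 0.176). Of 13 smooth muscle markers the calcium-pump inhibitor Pln (1.19) and the myosin kinase Mylk (0.73) were called higher. That share, 15.4%, was under the 17.0% of all tested genes called higher. Neither gene kept its call without GFP-AL replicates 2 and 3 (limma adjusted p = 0.0979 and 0.056). Endothelial markers gave 2 higher (Itm2a and Tek) and 5 lower of 18, among them Esam, VE-cadherin (Cdh5, -0.55) and Egfl7 (-0.44). Without GFP-AL replicates 2 and 3 the counts were 2 higher and 1 lower, and the calls of Cdh5 and Egfl7 were lost (adjusted p = 0.122 and 0.0887). With quantile normalization 7 were higher and 1 lower, so the direction of that list depended on the scaling. Red cell markers were not called in the comparison: of 10 tested, limma called 0, and 1 reached an unadjusted p under 0.05. Haemoglobin alpha (Hba-a1) was 2482, 1153, 5842, 3521 and 1963 FPKM in GFP-AL and 1254, 1543, 2136, 1565 and 2600.5 in LH3-AL, and a near-identical copy makes these levels uncertain. The groups overlapped widely, and both lay mostly above the 392 to 1222 FPKM of GFP-Veh.

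Lists of protein synthesis, protein turnover and metabolism differed in how many members were called. Of 23 tested proteasome subunits 12 were called lower (median -0.33) and of 24 cytosolic ribosomal protein genes 9 (median -0.40). Psmb4 was 29, 40.8, 39.991, 28.6 and 29.6 FPKM in GFP-AL and 22.2, 23.2, 21.1, 19.8 and 23.7 in LH3-AL, and the stalk protein Rplp0 averaged 159.5 ± 34.1 and 94.2 ± 10.3 FPKM (-0.73 ± 0.16). Without GFP-AL replicates 2 and 3 limma called 0 proteasome and 1 ribosomal gene, and leaving out single libraries gave 5 to 12 and 3 to 12. Ribosomal protein genes have many processed copies in the genome, so their levels are uncertain. Oxidative phosphorylation gave 2 lower of 24, a share under the 11.4% of all tested genes, Cox5a (-0.57) and Uqcrfs1 (-0.41), both lost without those 2 libraries. Glycolysis and hypoxia genes were called lower at 6 of 21 (28.6%, where 11.4% of all tested genes were called lower and 28.5% in either direction). The vasodilator peptide adrenomedullin (Adm, -1.89 ± 0.43), Hk2 (-0.49), Pkm (-0.59) and Pgk1 (-0.59) were among them. Pkm lost its call without GFP-AL replicates 2 and 3 (limma adjusted p = 0.0651). Heat shock genes gave 4 lower and 3 higher of 20 (35% called, against 28.5% of all tested genes). The counts were 2 lower and 1 higher without GFP-AL replicates 2 and 3. The inducible chaperone Hspa1b, which has a near-identical copy, had means of 24.6 ± 8.22 FPKM for GFP-Veh, 11.7 ± 7.67 for GFP-AL and 3.54 ± 2.07 for LH3-AL, with the call lost without those libraries (adjusted p = 0.0579), and the chaperonin subunit Cct2 differed by -0.44 ± 0.08. Cholesterol synthesis and uptake had 4 higher of 21, near the 17.0% of all tested genes, among them, with no overlap, Nsdhl (0.66 ± 0.15) and Dhcr7 (0.69 ± 0.19), which act late in the pathway, and the sterol carrier Stard4 (0.45 ± 0.12), whose call was lost without GFP-AL replicates 2 and 3. Circadian clock genes split 2 higher and 4 lower of 18 (33.3% called, near the 28.5% of all tested genes). The repressor Cry1 was at -0.93, Nfil3 at -1.61, Bhlhe40 at -1.03 and Npas2 at 0.66. In this list limma called 0 higher without GFP-AL replicates 2 and 3. Of 22 cell cycle genes 11 were tested, and 18.2% of these were called, under the 28.5% of all tested genes. The sliding clamp Pcna was lower (-0.52 ± 0.11) and Ccnd2 higher (0.40), the latter lost under 11 of 19 alternatives.

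Few genes differed from saline in LH3-AL by the test. Against GFP-Veh, a contrast that shares the LH3-AL libraries, 0.520% of tested genes were called in LH3-AL, while 28.6% were called in GFP-AL, which shares the GFP-AL libraries with the main comparison. All 5 LH3-AL libraries lay above the other 10 libraries at 0.413% of tested genes (54 genes, of which 49 were called against GFP-AL, 0.375% of tested genes) and below them at 0.581% (76 genes, 74 called, 0.566%). Among the 8 called genes above with the highest differences from GFP-AL, Col4a2 was 66.5 to 74.1 FPKM in GFP-Veh, and its lowest LH3-AL library was barely above that. The polarity gene Prickle1 was 24.5, 23.9, 25.3, 26.6 and 24.5 FPKM under saline in GFP-Veh, 12.4, 6.84, 4.69, 13.6 and 23 in GFP-AL and 42.6, 33, 38.7, 39.5 and 30.1 in LH3-AL. Myo5a, a myosin motor that carries vesicles, was 0.96, 0.296, 2.2, 0.937 and 0.871 FPKM under saline in GFP-Veh, 0.902, 0.635, 1.95, 0.612 and 0.97 in GFP-AL and 2.97, 3.74, 2.69, 3.17 and 2.58 in LH3-AL. GFP-AL and GFP-Veh did not separate for Myo5a, and LH3-AL minus GFP-Veh was 1.03 ± 0.21 (limma adjusted p = 0.0343). Lpar6, a lysophosphatidic acid receptor, was 7.94 to 9.34 FPKM over GFP-Veh, 4.2 to 10.7 over GFP-AL and 13.9 to 17.1 over LH3-AL, and its annotation overlaps that of Rb1. Amd1, which supplies polyamine synthesis, was 28.6 to 36.2 FPKM in LH3-AL and 22.9 to 28.2 in GFP-Veh. Myct1, a membrane protein of endothelium, was 13.4 to 25.7 FPKM in LH3-AL, against 8.37 to 13.1 over GFP-Veh and 5 to 11.2 over GFP-AL. The zinc finger gene Zfp763 (0.77 ± 0.13) and the inositol phosphate kinase Ip6k3 (0.66 ± 0.15) had lower levels, with means of 3.08 and 1.88 FPKM in LH3-AL, and the call of Myct1 was lost without GFP-AL replicates 2 and 3 (adjusted p = 0.0915).

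Of the 8 genes below both other groups, 6 were also called higher in GFP-AL than in saline, a contrast that shares the GFP-AL libraries, and S100a8 and S100a9 were not. Plaur differed from GFP-Veh by -1.59 ± 0.29 (adjusted p = 0.0204), and Tnfrsf12a, the receptor for the TNF-like cytokine TWEAK, by -1.04 ± 0.20 (adjusted p = 0.0292). Tnfrsf12a was 42.5, 59.9, 46.2, 37.1 and 42.3 FPKM under saline in GFP-Veh, 85.5, 152, 114, 90.2 and 102 in GFP-AL and 16.4, 16, 26.8, 18.9 and 33 in LH3-AL. The 3 groups were thus ordered with no overlap between any pair. The calprotectin subunits S100a8 and S100a9, abundant in neutrophils, were 5.12 to 9.95 and 22.9 to 35.8 FPKM in LH3-AL, 16.5 to 45.5 and 45.2 to 142 in GFP-Veh and 17 to 161 and 52.9 to 451 in GFP-AL, and their differences from GFP-Veh missed the threshold (adjusted p = 0.326 and 0.35). Litaf, a regulator of TNF transcription and endosomal sorting, was 47.1, 135, 111, 63.6 and 64.2 FPKM in GFP-AL and 14.2, 16.6, 13.5, 11.7 and 16.7 in LH3-AL (-2.36 ± 0.22). The homeobox gene Irx3 (-2.41 ± 0.38), the immediate early transcription factor Csrnp1 (-2.10 ± 0.35) and the Cdc42 effector Cdc42ep3 (-1.88 ± 0.24) completed the 8 lowest of this set.

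**Figure D5:**
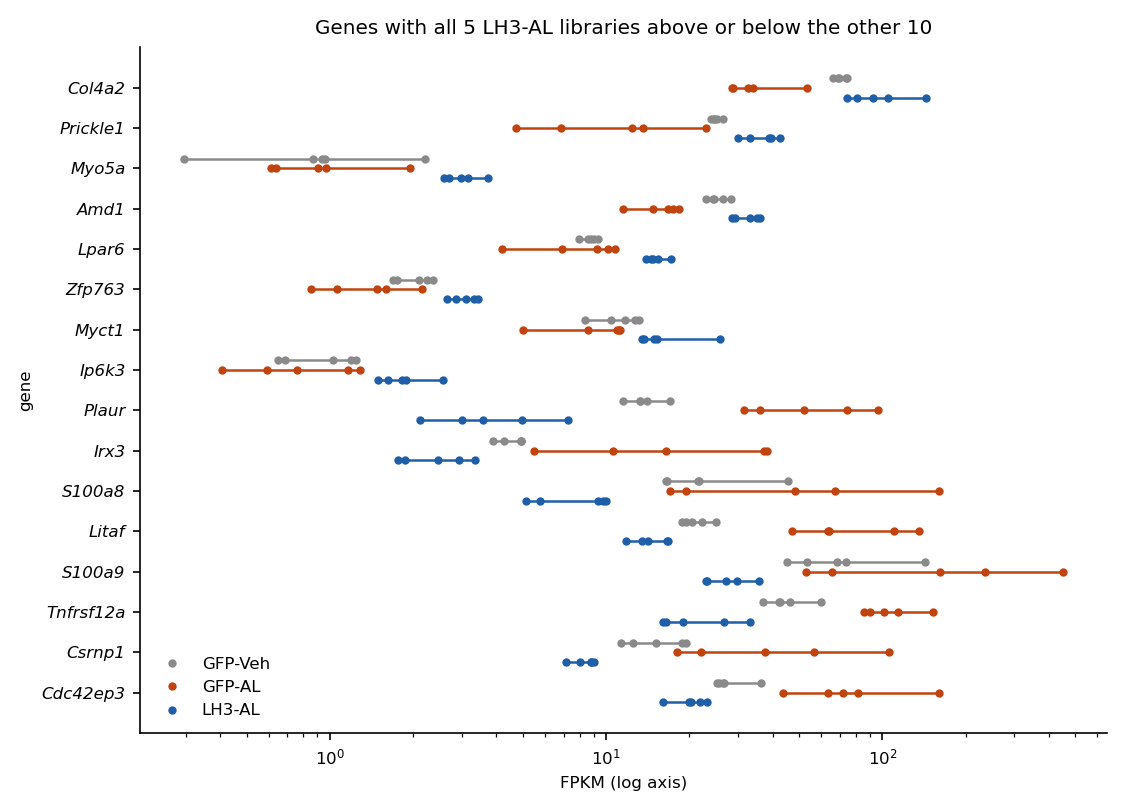
FPKM on a log axis of the 16 named genes whose 5 LH3-AL libraries (blue) all lie above (first 8 genes) or below (last 8) the 5 GFP-Veh (grey) and 5 GFP-AL (orange) libraries; points are libraries and lines join the lowest and highest of a group. For Col4a2 the gap to saline is narrow, and for Plaur and Tnfrsf12a the saline libraries lie between the other two groups.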

How the data were processed

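The members and gene lists were chosen with earlier results of these data known. The authors deposited 1 table of FPKM values for 22557 rows in 15 libraries, per the file headers, and no step of read counting is given in the sources used here. Reads were aligned with STAR 2.5.1b, and mm8 is the genome build, per the submitters' processing notes; whether libraries were stranded is likewise not stated, so reads of overlapping genes cannot be told apart. In the deposited FPKM values, 5.99% lie below 0, of which 92.8% are above -0.001 and the lowest is -0.465, so an adjustment was made that no source states; values below 0 were set to 0. Rows that share a symbol were summed, which left 22526 symbols, and 22400 matched GENCODE M21 on GRCm38, from which positions are quoted without conversion from mm8.

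Groups were read from the labels. Genes that averaged 1 FPKM or more across the 15 libraries (13082) were tested on log2(FPKM + 1), a scale that understates the fold of low genes, with limma 3.58.1 in R 4.3.3. The fit held the means of all 3 groups, so that the 5 GFP-Veh libraries added to the estimate of spread, with empirical Bayes moderation that followed mean level. Benjamini-Hochberg adjustment ran over the 13082 genes, and a gene was called at an adjusted p under 0.05; the text's adjusted p-values are these. Plod3 was also tested alone with an exact permutation test. Python 3.11.15 with numpy 2.4.6, pandas 2.3.3 and matplotlib 3.10.9 did the rest. The fit was tested on simulated data.

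From the called genes with no overlap of the groups, predicted genes and small RNAs aside, those named were the 20 highest and 20 lowest differences and the 10 with the highest mean FPKM in each direction, so their lack of overlap was fixed by this rule. To these were added the 8 highest and 8 lowest called genes with LH3-AL outside both other groups, the enzymes that modify collagen lysines, Col4a1 and Col4a2, and of each of 46 lists up to 5 called members with the smallest p, or up to 3 with the highest FPKM where fewer than 2 were called. That gave 242 genes, 67 of them with exons that overlap another gene. Promoter sequences came from RefSeq's table for GRCm38.p6. Deposited tables of the authors' own fold changes and p-values were not used here. Depth per library was estimated from the steps between low values at 13500000 to 31820000 fragments; these steps gave whole reads (within 0.1) for 48.9% to 67.2% of values, against 20% by chance, which was too few to recover counts. Alternatives changed the pseudocount, the filter, the scaling, the libraries entered, the library weights and a block on replicate number.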

Additional observations from a re-analysis of the deposited data

Results flagged for a closer look

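In a group of 5 libraries, 1 library stood apart where its gap to the next was more than 0.71 of the group's range; chance gives this in about 1 group in 20, and no value was left out for it. GFP-AL library 2 was the highest of its group for Saa3 (63.9 FPKM, others 14.1 to 22), Cfl1 (776 FPKM, others 581 to 629), Srxn1 (33.5 FPKM, others 18 to 19.6) and Lyz2 (318 FPKM, others 211 to 228). GFP-AL library 2 was the lowest of its group for Alpl (8.53 FPKM, others 15.6 to 17.7), App (366 FPKM, others 510.1 to 531) and Slc22a8 (25.8 FPKM, others 67.7 to 81.8). GFP-AL library 3 was the highest of its group for Eef1a1 (753 FPKM, others 603 to 642) and Birc3 (13.6 FPKM, others 7.2 to 8.63). GFP-AL library 3 was the lowest of its group for Kl (1.96 FPKM, others 4.34 to 5.18), Dnah11 (0.202 FPKM, others 0.635 to 0.777) and Ccdc153 (1.55 FPKM, others 3.79 to 4.49). GFP-AL library 1 was the lowest of its group for Serpina3n (227 FPKM, others 315 to 356) and Herpud1 (27.4 FPKM, others 34 to 35.8). GFP-AL library 4 was the highest of its group for Col4a2 (53.5 FPKM, others 28.4 to 34). GFP-AL library 5 was the highest of its group for Tmem119 (22.8 FPKM, others 19.5 to 20.1). LH3-AL library 1 was the highest of its group for Cyp2e1 (29.1 FPKM, others 11.2 to 14.8), Myct1 (25.7 FPKM, others 13.4 to 15.2) and Ccnd2 (9.39 FPKM, others 5.79 to 6.67). LH3-AL library 1 was the lowest of its group for Mia3 (24.1 FPKM, others 26.4 to 26.9). LH3-AL library 3 was the lowest of its group for Kl (7.48 FPKM, others 10.7 to 12). LH3-AL library 4 was the lowest of its group for Tnfrsf1a (29.6 FPKM, others 34.6 to 36.1) and Pcna (9.08 FPKM, others 10.2 to 10.4). LH3-AL library 5 was the highest of its group for Tubb6 (12.1 FPKM, others 4.23 to 5.79), Adamts9 (4.26 FPKM, others 1.18 to 1.43), P4hb (105 FPKM, others 84.3 to 89), Timp1 (3.78 FPKM, others 2.2 to 2.52), Angpt2 (22.6 FPKM, others 8.86 to 10.8), Hmox1 (15.3 FPKM, others 4.68 to 6.31) and H2-D1 (321 FPKM, others 227 to 243). LH3-AL library 5 was the lowest of its group for Edn1 (62.9 FPKM, others 73.8 to 77.7).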

How the results depend on the processing

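Of the 242 named genes, 49 lost their call without GFP-AL replicates 2 and 3 and 1 to 23 under the other alternatives. Each named gene called in the main fit kept its direction under every alternative that could be run for it. For named genes that were never called, a change of sign was not recorded. Plod3 kept its call under all alternatives. All tested genes gave 1951 calls (1000 higher, 951 lower) without GFP-AL replicates 2 and 3 and 2109 (1051 higher) with a mean of at least 5 FPKM, where 7382 genes were tested; the smaller number of libraries or genes belongs to these alternatives by construction. Leaving out 1 library at a time gave 2658 to 3939 calls, 1494 to 2449 higher and 1109 to 1548 lower. No filter gave 4164, a pseudocount of 0.1 3644, the 10 libraries alone 3101 and array weights 3555. With the replicate number as a block there were 3879 calls (2323 higher, 1556 lower). No clear pairing by number was seen, and 5 pairs are too few to decide whether there is one. Same-numbered GFP-AL and LH3-AL libraries had correlations of deviations from their group means of -0.07, 0.29, 0.16, 0.07 and -0.19. Of 5 GFP-AL libraries 2 correlated best with their own number. Genes above both other groups and called against GFP-AL numbered 49, 43 with median-of-ratios scaling and 39 with quantile normalization. Called genes below both other groups numbered 74, 86 and 84. Genes near 1 FPKM rest on few fragments per library, and the deposited values give no counts behind them.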
